A study of Mus musculus with 8 samples.

Results

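The genes described here carry the insulin signal inside the cell: the insulin receptor gene Insr, the receptor substrate genes Irs1 and Irs2, the phosphoinositide 3-kinase subunit gene Pik3r1, the kinase genes Akt1 and Akt2, and the transcription factor genes Foxo1 and Foxo3. A probe was a member when its gene name on the array equalled one of these 8 symbols, with the older names of the FoxO genes accepted, and each probe was read apart. The rule found 16 of the array's 41174 probes, for 7 of the 8 genes. Irs2 was not analysed here, because no probe carried its name. All 16 probes were well above background for at least 1 diet on every array.

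Liver RNA came from pregnant C57BL/6J mice and from their male fetuses on gestation day 18. The food-restricted (FR) mothers had received 50% of the chow eaten by the control mothers from gestation day 10 to 17, and control mothers ate freely. An FR pool and a control pool shared each Agilent 2-colour array, and the same pools were hybridized again with the dyes exchanged, which gave 8 arrays on 2 slides. The maternal pools held 6 animals per diet (1 pool pair), and the fetal pools held 6 animals (1 pool pair) or 3 animals (2 pool pairs).

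Nothing in the labels ties a fetal pool to its mothers. The fetal pools of a diet held 12 fetuses, equal to the 2 fetuses taken from each of 6 mothers. If these were the same fetuses, a pool of 3 cannot hold whole pairs of littermates only, so at least 1 mother contributed to more than 1 pool. The 3 fetal pool pairs are then not independent litters, and the p-values measure only the spread between these pools. Both slide and pool size changed together, since slide 1 held the maternal pair and the fetal pair of 6, and slide 2 held the fetal pairs of 3. Dye-exchanged arrays were taken as 1 pool pair after their titles, although a description text that also names rat hippocampus calls one of them Pool 2. The fetal hepatocyte markers Afp and H19 summed to 187487 to 266366 intensity units in FR fetal pools and 254060 to 261797 in control fetal pools, against 816 in FR mothers and 635 in control mothers. The livers are whole tissue, so fewer cells of a type and less RNA per cell cannot be told apart.

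Insulin bound to its receptor leads to phosphorylation of the IRS proteins, which dock the regulatory subunit of phosphoinositide 3-kinase. The lipid this kinase makes recruits and activates Akt. Akt in turn phosphorylates FoxO factors, which then leave the nucleus, so that their target genes in liver, such as those for glucose output, are transcribed less. In fasted liver, low insulin is known to leave FoxO factors in the nucleus, and Irs2 is known as a gene that fasting raises.

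In fetal liver, 1 member probe rose and 3 fell under maternal FR, and 12 passed in neither direction. The probe that rose belonged to Pik3r1, by 0.79 ± 0.17 on the log2 scale (SD, n = 3 pool pairs). Probes of Irs1, Akt2 and Insr fell, with means of -0.81 ± 0.23, -0.34 ± 0.09 and -0.32 ± 0.10. The background of that fit was large: 10.5% of 32100 probes were higher and 13.7% lower at a limma adjusted p under 0.05, so 4 of 16 member probes is close to the 24.2% called in either direction. In maternal liver, which had 1 pool pair and therefore no test, a call meant at least 2-fold on both arrays. The same Pik3r1 probe was the 1 member higher in that sense, and 0 were lower, against 0.976% and 1.01% of 29085 probes (1.98% in either direction). The FR minus control difference between mother and fetus passed for 0 of the 16 member probes (limma, adjusted p between 0.087 and 0.93). Of 28505 probes 1.5% were called higher and 1.54% lower. At an unadjusted limma p under 0.05 were 5 of the 16 member probes and 5724 of the 28505.

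**Figure D1:**
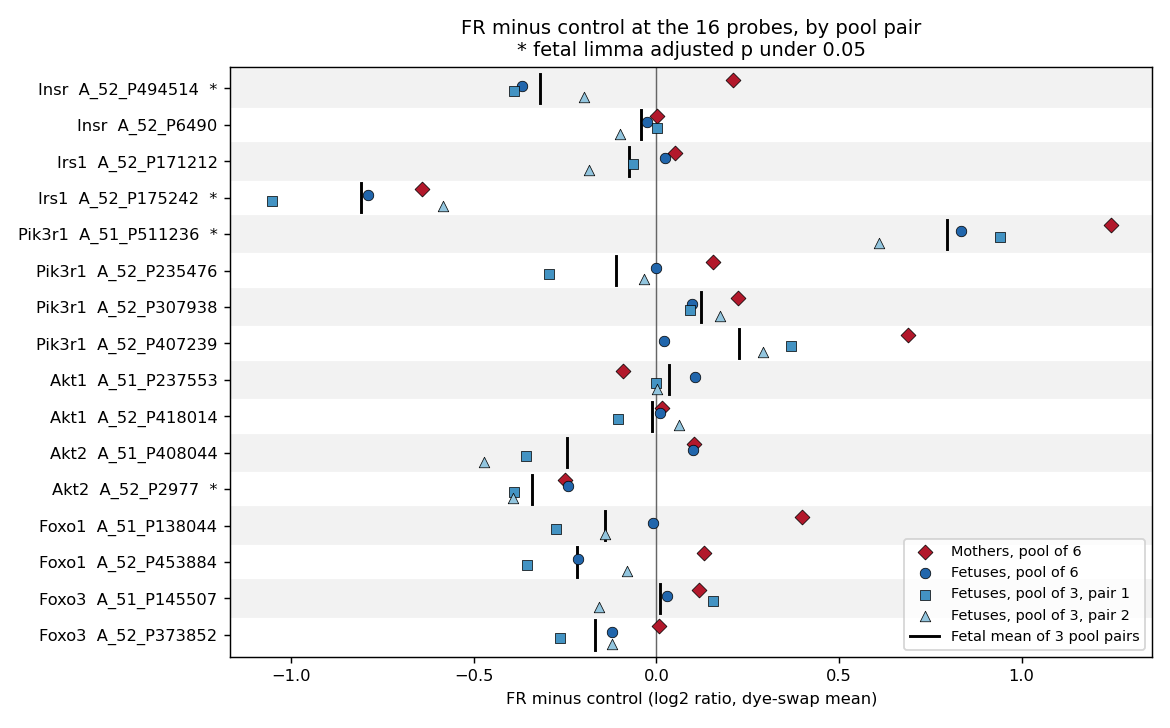
The horizontal axis gives FR minus control as a log2 ratio, averaged over the 2 arrays of a dye exchange, for each of the 16 member probes listed down the page; diamonds are the maternal pool pair, blue symbols the 3 fetal pool pairs, and vertical bars the fetal means. The Pik3r1 probe A_51_P511236 lies right of 0 in all 4 pool pairs, between 0.61 and 1.24, while the Irs1 probe A_52_P175242 lies left of 0 in all 4, between -1.05 and -0.58.

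The receptor gene Insr had 2 probes, both on the minus strand of chromosome 8 in the array's mm9 coordinates. At the probe A_52_P494514 (chr8:3151667-3151726) the log2 level was 10.90 in the FR fetal pool of 6, against 11.27 in its control pool. In the pools of 3 it was 10.28 and 10.41 in FR, against 10.66 and 10.61 in control. Each FR fetal pool was below its own control pool, but the groups overlapped, because both pools of 6 on slide 1 read above all pools of 3 on slide 2.

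The fetal fold at this Insr probe was 0.802 (adjusted p = 0.019). Its spots were marked non-uniform on 3 arrays of slide 1. Of the 6 fetal arrays, 5 were below 0, and the dye term of a fit on single arrays was -0.17 (adjusted p = 0.044), so the decrease read larger with FR RNA in Cy5. In mothers the level was 11.61 in the FR pool and 11.40 in the control pool, with a difference of 0.21 that was -0.15 on one array and 0.57 on the other. Mother minus fetus came to 0.53 ± 0.12 (SE, adjusted p = 0.087). The fetal call did not hold without spots marked non-uniform (-0.29, adjusted p = 0.080), with scale normalization between arrays (adjusted p = 0.083), without the pool of 6 (-0.29, adjusted p = 0.10) or without the pair 1 of the pools of 3 (-0.28, adjusted p = 0.072). The other Insr probe, A_52_P6490 (chr8:3159473-3159532), had a median signal of only 2.25 times its local background, against 27.7 times for the brighter probe. Its fetal values lay between -0.10 and 0.00 (mean -0.04, adjusted p = 0.56), and the maternal value was 0.00.

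Irs1, the substrate gene measured here, held the probe with the lowest fetal mean of the 16. At the probe A_52_P175242 (chr1:82229692-82229751, minus strand) the log2 level was 10.14 in the FR fetal pool of 6, against 10.93 in control. It was 9.73 and 10.27 in the FR pools of 3, against 10.78 and 10.85 in control. All 3 FR fetal pools lay below all 3 control fetal pools, and the fold was 0.571 (adjusted p = 0.0085).

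In mothers the level was 10.29 in the FR pool and 10.94 in the control pool, a difference of -0.64 that was -0.28 on one array and -0.998 on the other. All 8 arrays were below 0, although spots of this probe were marked non-uniform on 2 arrays of slide 1. The decrease read larger with FR RNA in Cy3, by a dye term of 0.24 (adjusted p = 0.036), and the dye exchange averages this out within each pool pair. Mother minus fetus was 0.17 ± 0.19 (SE, adjusted p = 0.70). The fetal call was lost with scale normalization (-0.88, adjusted p = 0.070) and without the pool of 6 (-0.82, adjusted p = 0.056). The upstream Irs1 probe A_52_P171212 (chr1:82233564-82233623) had a fetal mean of -0.08 ± 0.11 (adjusted p = 0.39) and a maternal value of 0.05, and its median signal was 2.18 times background against 26.4 times for the brighter probe. The gap between the Irs1 probes, brighter minus dimmer, was below 0 in all 4 pool pairs, with a fetal mean of -0.73 ± 0.30.

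**Figure D2:**
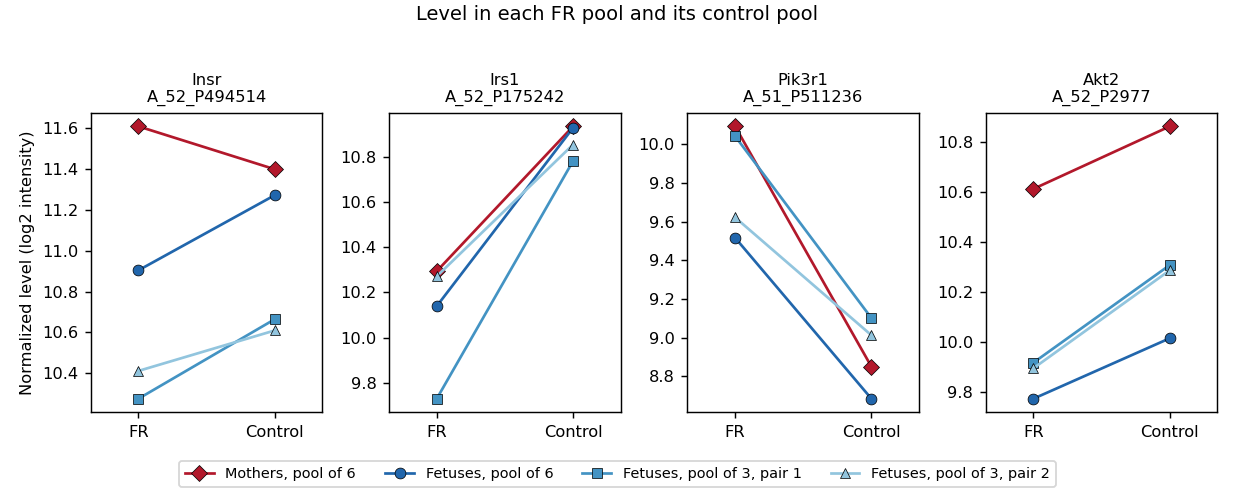
The vertical axes give the normalized level as log2 intensity, each panel with its own range, in each FR pool and in the control pool hybridized with it, joined by a line, for the 4 member probes that passed in fetuses. The lines of Irs1 A_52_P175242 and Akt2 A_52_P2977 run upward to control in all 4 pool pairs and that of Pik3r1 A_51_P511236 downward in all 4, while for Insr the maternal line runs the other way to the 3 fetal lines.

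The 250 bases before the RefSeq start of Irs1 are shown because the probe with the lowest fetal mean belongs to this gene, although its dimmer probe did not pass. The motifs were chosen with the sequence in view. Capitals mark the E-box CACGTG and the motif TGTTTTG (the reverse complement of CAAAACA, the core of insulin response elements), for chr1:82291440-82291689 on the minus strand of GRCm38.p6.
Irs1 promoter: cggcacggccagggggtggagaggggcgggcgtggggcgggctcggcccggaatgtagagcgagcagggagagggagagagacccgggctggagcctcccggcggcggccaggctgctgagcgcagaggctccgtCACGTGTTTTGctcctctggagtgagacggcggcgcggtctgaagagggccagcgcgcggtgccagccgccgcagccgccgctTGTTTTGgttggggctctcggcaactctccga
The E-box began 115 bases before the start and shared its last bases with a TGTTTTG that began at 111 bases, and a further TGTTTTG began at 32 bases. Searched on both strands, CACGTG was present in 6.02% of 32851 RefSeq promoter windows of this length and CAAAACA in 5.56%. The RefSeq table held 12 start sites for 7 of the 8 genes, Irs2 included, and the window of Irs2 also held 1 of each motif. GTAAACA, a FoxO binding element found in 3.17% of windows, was present at 1 start site of Akt1 and at none of the others, and AGAACA, a glucocorticoid receptor half-site found in 16.1%, was at none. These matches describe letters in the window and do not show binding.

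Pik3r1 encodes the p85 alpha regulatory subunit, through which phosphoinositide 3-kinase docks on IRS proteins. It had 4 probes on the minus strand of chromosome 13, and they read differently. At A_51_P511236 (chr13:102454406-102454465) the log2 level was 9.52 in the FR fetal pool of 6, against 8.68 in control, and 10.04 and 9.62 in the FR pools of 3, against 9.10 and 9.01 in control. In mothers it was 10.09 in the FR pool and 8.85 in the control pool. All 3 FR fetal pools lay above all 3 control fetal pools, and all 8 arrays were above 0.

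The fetal fold at this probe was 1.73 (adjusted p = 0.0063) and the maternal fold was 2.37, from arrays of 1.09 and 1.40. Mother minus fetus was 0.45 ± 0.15 (SE, adjusted p = 0.19). No spot of this probe was marked non-uniform. The fetal call was lost with scale normalization (0.85, adjusted p = 0.070) and, narrowly, without the pool of 6 (0.78, adjusted p = 0.0503).

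The probe next upstream, A_52_P407239 (chr13:102456208-102456267), gave 0.02, 0.37 and 0.29 in the fetal pool pairs (mean 0.23 ± 0.18, adjusted p = 0.094, and 0.036 in a fit on single arrays) and 0.69 in mothers. The most 3′ probe, A_52_P235476 (chr13:102451558-102451617), gave 0.00, -0.29 and -0.03 in fetuses (adjusted p = 0.32) and 0.16 in mothers, although its signal was at least as far above background (median 15 times, against 12.6 times for A_51_P511236). The most 5′ probe, A_52_P307938, gave 0.10, 0.09 and 0.18 in fetuses (adjusted p = 0.12) and 0.22 in mothers. In all 4 pool pairs A_51_P511236 read above each of the other 3 Pik3r1 probes, by fetal means of 0.57 ± 0.25, 0.67 ± 0.21 and 0.90 ± 0.30 over A_52_P407239, A_52_P307938 and A_52_P235476. The cause of the disagreement was not tested, and a value for the gene as a whole is therefore not given.

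**Figure D3:**
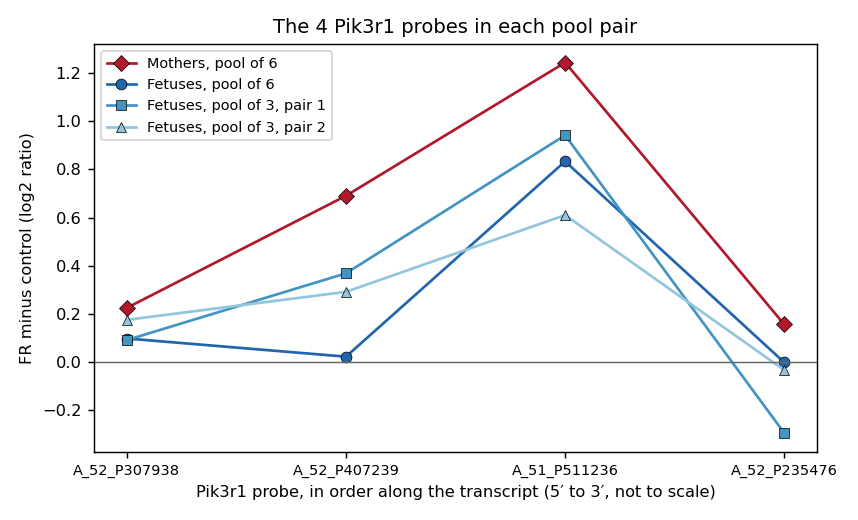
The horizontal axis orders the 4 Pik3r1 probes along the transcript from 5′ to 3′, not to scale, and the vertical axis gives FR minus control as a log2 ratio, with a line for each pool pair. Every line peaks at A_51_P511236, between 0.61 and 1.24, and the probe 3′ of it lies between -0.29 and 0.16.

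The sequences of A_52_P307938 and of the Akt2 probe A_51_P408044 are shown because each lies across an exon junction, so that it reads spliced RNA, and because neither passed where another probe of its gene did. The coordinates span more than the 60 bases of the probe, at chr13:102459406-102460448 (minus strand) and chr7:28421973-28422113 (plus strand) in mm9.
Pik3r1 A_52_P307938: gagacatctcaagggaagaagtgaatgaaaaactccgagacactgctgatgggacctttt
Akt2 A_51_P408044: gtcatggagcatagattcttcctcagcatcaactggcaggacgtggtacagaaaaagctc
The Pik3r1 probe also read differently between slides, with control levels of 7.78 in the fetal pool of 6 on slide 1 and 9.51 and 9.32 in the pools of 3 on slide 2. FR minus control is a ratio within an array.

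Akt2 encodes the Akt isoform best known for insulin action in liver, and Akt1 its more broadly expressed relative. At the Akt2 probe A_52_P2977 (chr7:28423859-28423918, plus strand) the log2 level was 9.77 in the FR fetal pool of 6, against 10.01 in control. In the pools of 3 it was 9.92 and 9.89 in FR, against 10.31 and 10.29 in control. The FR fetal pools all lay below the control fetal pools, by a narrow margin, and the fold was 0.789 (adjusted p = 0.014).

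In mothers the level was 10.61 in the FR pool and 10.86 in the control pool, a difference of -0.25. All 8 arrays were below 0, although spots of this probe were marked non-uniform on all 4 arrays of slide 1. The fetal call did not hold with scale normalization (-0.31, adjusted p = 0.058), without the pool of 6 (-0.39, adjusted p = 0.055) or without the pair 1 of the pools of 3 (-0.32, adjusted p = 0.054). The junction probe A_51_P408044 gave 0.10 in the pool of 6 and -0.36 and -0.47 in the pools of 3 (mean -0.24 ± 0.30, adjusted p = 0.19), and 0.10 in mothers. On slide 2 the Akt2 probes read alike, with gaps of -0.03 and 0.08, while on slide 1 they differed by -0.35 in mothers and -0.34 in the fetal pool of 6.

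Akt1 was the most densely measured member. Its probe A_51_P237553 (chr12:113892079-113892138, minus strand) was printed 10 times per array, with an SD between spots of 0.027 to 0.096, and 3 of its spots were dropped as population outliers. Of its spots on the 4 arrays of slide 1, 35 were marked non-uniform, a mark that did not drop a spot. The level was 12.19 in the FR fetal pool of 6 and 12.38 in each FR pool of 3, against 12.08, 12.38 and 12.37 in their control pools. FR minus control was 0.11, 0.00 and 0.00 in fetuses (mean 0.04 ± 0.06, adjusted p = 0.63) and -0.09 in mothers. The dimmer Akt1 probe A_52_P418014 had a fetal mean of -0.01 ± 0.09 (adjusted p = 0.90) and a maternal value of 0.02. No change of Akt1 RNA was detectable at either probe in these pools.

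Foxo1, the FoxO gene best known for gluconeogenic control in liver, passed at neither of its probes on the plus strand of chromosome 3. At A_51_P138044 (chr3:52150183-52150242) the level was 12.04, 11.54 and 11.71 in the FR fetal pools and 12.05, 11.81 and 11.85 in their control pools. The fetal mean was -0.14 ± 0.13 (adjusted p = 0.17), and the maternal difference was 0.40, with 12.27 in the FR pool and 11.87 in the control pool. At A_52_P453884 (chr3:52153289-52153348) the fetal values were -0.21, -0.36 and -0.08 (mean -0.22 ± 0.14, adjusted p = 0.069), and the maternal value was 0.13. Mother minus fetus was 0.54 ± 0.13 (SE, adjusted p = 0.11) and 0.35 ± 0.13 (adjusted p = 0.24) at these probes. Their spots were marked non-uniform on 4 and 3 arrays of slide 1. The second Foxo1 probe passed in fetuses in a limma fit on single arrays with a dye term (adjusted p = 0.022). It also passed without the pair 2 of the pools of 3 (-0.28, adjusted p = 0.044). In the fit on single arrays 7 member probes passed in place of 4, and 31.5% of all probes in place of 24.2%.

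Foxo3, a related FoxO gene, was read by dim probes with median signals of 2.59 and 1.84 times background. Its fetal means were 0.01 ± 0.16 (adjusted p = 0.94) at A_51_P145507 (chr10:41905752-41905811) and -0.17 ± 0.08 (adjusted p = 0.072) at A_52_P373852 (chr10:41900547-41900606). The second of these was below 0 in all 3 fetal pool pairs and passed in the authors' deposited log ratios (-0.50, adjusted p = 0.029) and in the fit on single arrays (-0.17, adjusted p = 0.033). Maternal values were 0.12 and 0.01. The 5 member probes with median signals of 1.84 to 2.86 times background had fetal means between -0.17 and 0.01, and the 4 calls were all among the other 11.

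Set side by side, the maternal FR minus control value stood above the fetal mean at 15 of 16 member probes, with a median gap of 0.17, while over all 28505 probes 14677 were above and the median gap was 0.01. The exception was the 10-spot Akt1 probe, at -0.13 ± 0.10 (SE, adjusted p = 0.56). The maternal value was above 0 at 13 of the 16 (median 0.11) and the fetal mean below 0 at 11 (median -0.09). Probes of 1 gene share their target, and the maternal side is 1 pool pair, so this count describes these pools.

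Control maternal liver and control fetal liver were also compared at each probe. The level passed at 1 member probe, Foxo3 A_51_P145507, which was lower in control mothers (6.67) than in control fetal pools (7.18, 7.34 and 7.28), a difference of -0.59 (limma adjusted p = 0.042), against 16.6% of 28505 probes higher and 14.5% lower in control mothers. In mothers the control channel was well above background on 1 of 2 arrays at this probe, so the maternal level lies near background. The call was lost without either pool of 3 (adjusted p = 0.18 and 0.13). Without the fetal pool of 6, 7 of the 16 member probes passed, while 51.3% of all 28505 probes did. Akt2 was higher in control mothers at both probes without passing, by 0.66 (adjusted p = 0.051) at A_52_P2977 and 0.85 (adjusted p = 0.10) at A_51_P408044. With slide as a fixed term the comparison is 1 maternal pool against 1 fetal pool, both on slide 1, so only sizes are given. Akt2 was then higher in control mothers by 0.85 and 1.31 at these probes. Akt1 A_51_P237553 read 11.79 in control mothers and 12.08 to 12.38 in control fetal pools, a difference of -0.49 (adjusted p = 0.12). The other member probes ranged between -0.38 and 0.55. The lowest of these, Pik3r1 A_52_P307938, turned to 0.71 with slide as a fixed term.

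Genes around the members were read at their brightest probe, in 5 lists. Of 14 upstream adaptors and inhibitors, 0 rose and 4 fell in fetuses (median -0.15, against 0.00 over all probes). Of all probes 24.2% were called in either direction and 13.7% fell. In this list 2 calls were left without non-uniform spots and 0 on slide 2 only. On slide 2 only, 5 of the 14 had an unadjusted limma p under 0.05, as had 9548 of 32100 probes. Grb10, an imprinted adaptor that restrains the insulin receptor, fell to -0.61 ± 0.24 (adjusted p = 0.014), the receptor phosphatase gene Ptprf to -0.43 ± 0.21 (adjusted p = 0.027) and the signalling suppressor gene Socs1 to -0.36 ± 0.16 (adjusted p = 0.023). Sh2b1, an adaptor that binds the receptor, fell to -0.19 ± 0.02 (adjusted p = 0.033). In mothers 0 of 13 reached 2-fold on both arrays (median -0.06), with Socs3 at 0.57, Ptprf at -0.55, Enpp1 at 0.50 and Grb10 at -0.45.

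Of 12 genes for phosphoinositide 3-kinase subunits and lipid phosphatases other than Pik3r1, 2 rose and 3 fell in fetuses (median -0.08), against 10.5% and 13.7% of all probes. Without non-uniform spots 3 calls were left, and 0 on slide 2 only. There 4 of the 12 had an unadjusted limma p under 0.05, as had 9548 of 32100 probes. Inppl1, which encodes the lipid phosphatase SHIP2, fell to -0.77 ± 0.18 (adjusted p = 0.0071), the catalytic subunit gene Pik3cd to -0.39 ± 0.11 (adjusted p = 0.013) and Inpp5d, the blood cell phosphatase SHIP1, to -0.32 ± 0.09 (adjusted p = 0.015). Pik3ip1, a kinase inhibitor, rose by 0.41 ± 0.25 (adjusted p = 0.041), and the regulatory subunit gene Pik3r3 by 0.22 ± 0.06 (adjusted p = 0.030). In mothers 0 of 12 reached 2-fold, and the values named by size were -0.70 for Inppl1, 0.69 for Pdpk1, which encodes the kinase that phosphorylates Akt, 0.57 for Pik3cb and -0.43 for Inpp5d.

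Of 25 partners and targets of Akt, 1 rose and 5 fell in fetuses (median 0.00), a share at the background of 24.2%. On slide 2 only, 1 gene of the list passed. There 9 of the 25 had an unadjusted limma p under 0.05, as had 9548 of 32100 probes. Sgk1, a kinase related to Akt, rose by 0.84 ± 0.15 (adjusted p = 0.0051), while it was lower in mothers at -1.20, the 1 gene of the list past 2-fold on both maternal arrays. Mlst8 fell to -0.29 ± 0.14 (adjusted p = 0.032), the glycogen synthase kinase gene Gsk3b to -0.27 ± 0.13 (adjusted p = 0.034), the phosphodiesterase gene Pde3b to -0.25 ± 0.08 (adjusted p = 0.028) and Eif4ebp1, a translation repressor, to -0.24 ± 0.03 (adjusted p = 0.020). In mothers the values named by size after Sgk1 were 0.78 for Eif4ebp1, -0.51 for Mlst8 and 0.49 for Rps6kb1, the S6 kinase gene.

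Of 17 genes that FoxO factors are known to induce, 10 rose and 2 fell in fetuses, with a median of 0.44. Of all probes 10.5% rose and 13.7% fell. On slide 2 only 2 passed, with a median again of 0.44. There 12 of the 17 had an unadjusted limma p under 0.05, against 9548 of 32100 probes. With the mean of all passing probes of each gene, on both slides, the list median was 0.40. Txnip, which encodes an inhibitor of glucose uptake, rose by 1.63 ± 0.79 (adjusted p = 0.019), Igfbp1, a binding protein for insulin-like growth factors, by 1.04 ± 0.10 (adjusted p = 0.0044), and G6pc, the enzyme that releases free glucose, by 0.88 ± 0.23 (adjusted p = 0.0072). Pdk4, which restrains pyruvate oxidation, rose by 0.75 ± 0.39 (adjusted p = 0.024), while Sesn3 fell to -0.36 ± 0.10 (adjusted p = 0.014) and was -1.04 in mothers. In mothers 3 of 17 were higher and 0 lower by the 2-fold rule (list median 0.03), against 0.976% and 1.01% of all probes. The 3 were Pnpla2, a triglyceride lipase, at 1.47, Txnip at 1.43 and Ppargc1a, a coactivator of gluconeogenic genes, at 1.24. Several of these genes also answer to glucocorticoids and other fasting signals, and the members' part in their change was not tested.

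Of 12 genes that insulin is known to induce in liver, 1 rose and 10 fell in fetuses (median -0.66), against 10.5% and 13.7% of all probes. In mothers 0 were higher and 2 lower by 2-fold (median -0.52), against 0.976% and 1.01% of all probes. On slide 2 only 3 passed in fetuses, with a median of -0.64. There 11 of the 12 had an unadjusted limma p under 0.05, against 9548 of 32100 probes. With the mean of all passing probes of each gene, on both slides, the fetal list median was smaller in size, at -0.45. The desaturase gene Scd1 fell to -1.33 ± 0.15 (adjusted p = 0.0044) and was -2.30 in mothers, and the lipogenic genes Pnpla3, Elovl6 and Fasn fell to -1.28 ± 0.31, -1.18 ± 0.37 and -0.87 ± 0.15 (adjusted p between 0.0049 and 0.0086). Acly fell to -0.65 ± 0.10 (adjusted p = 0.0055) and was -0.81 in mothers. The gene that rose was Pklr, the liver pyruvate kinase, by 0.31 ± 0.06 (adjusted p = 0.014).

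**Figure D4:**
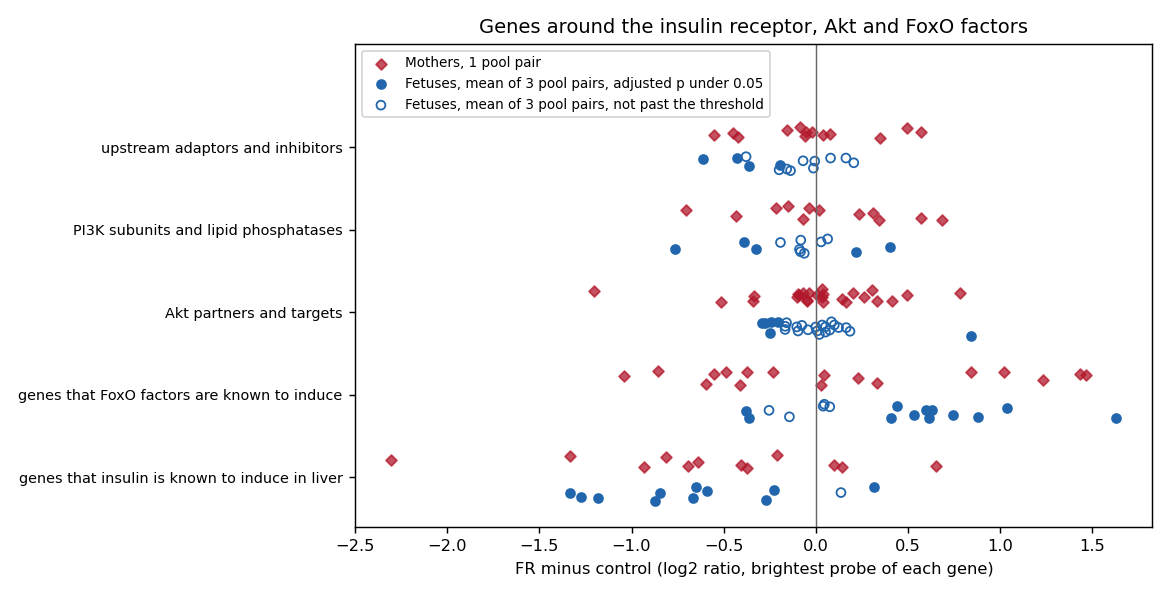
The horizontal axis gives FR minus control as a log2 ratio at the brightest probe of each gene, for the 5 lists down the page; red diamonds are mothers (1 pool pair), filled blue circles are fetal means past the adjusted p threshold and open circles those that are not. Fetal means of the FoxO-induced list reach 1.63 on the right, and those of the insulin-induced list reach -1.33 on the left.

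Cell type markers moved in the same pools, where 10.5% of all probes rose and 13.7% fell in fetuses. Of 10 B lineage markers, 8 fell and 0 rose in fetuses (median -0.81), and their summed level was 6857 to 10699.6 intensity units in FR fetal pools, against 16874 to 17876 in control fetal pools. Of 9 granulocyte markers, 7 fell and 0 rose (summed 235036 to 258864 in FR, against 404952 to 416939 in control). Of 5 hepatocyte markers, 3 fell and 0 rose (summed 298464 to 363707 in FR, against 395493 to 431739 in control), and of 7 erythroid markers 1 fell and 0 rose (summed 284959 to 365928 in FR, against 205086 to 289981 in control). The erythroid sum was 313818 in FR against 205086 in control in the pool of 6. In the pools of 3 it was 365928 against 229941 in pair 1, and 284959 against 289981 in pair 2. Of 7 Kupffer cell markers 2 rose and 3 fell, and of 4 T and NK cell markers 3 fell and 0 rose. In mothers the B lineage sum was 1744 in the FR pool and 2248 in the control pool, the granulocyte sum 12380.3 in FR and 23084 in control, and the erythroid sum 16495 in FR and 28740.0 in control. The Kupffer cell sum was 13964 in the FR maternal pool and 19802 in the control pool. By the 2-fold rule 2 of 7 Kupffer cell markers, 2 of 6 stellate cell markers and 1 of 5 erythroid markers were lower in mothers. Over all probes 1.01% were lower by that rule. The part of these shifts in the members' values was not tested.

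Over the 4 pool pairs, the genes most like a called member were those with the smallest root mean square gap to it, among 15057 candidate genes. For Irs1 A_52_P175242 the nearest was Cd79b, a component of the B cell receptor, at 0.015, followed by Fmo1 (0.043) and Icam2 (0.062). Cd79b, which is also on the B lineage marker list, gave -0.81, -1.06 and -0.57 in the fetal pool pairs and -0.66 in mothers. The nearest to Insr A_52_P494514 were Epha3 (0.021), Skap2 (0.034) and Impa2 (0.044), and to Akt2 A_52_P2977 they were Sox17 (0.022), Kif3a (0.023) and Haspin (0.026). With 4 points and this many candidates, close matches describe the pools and carry no test.

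**Figure D5:**
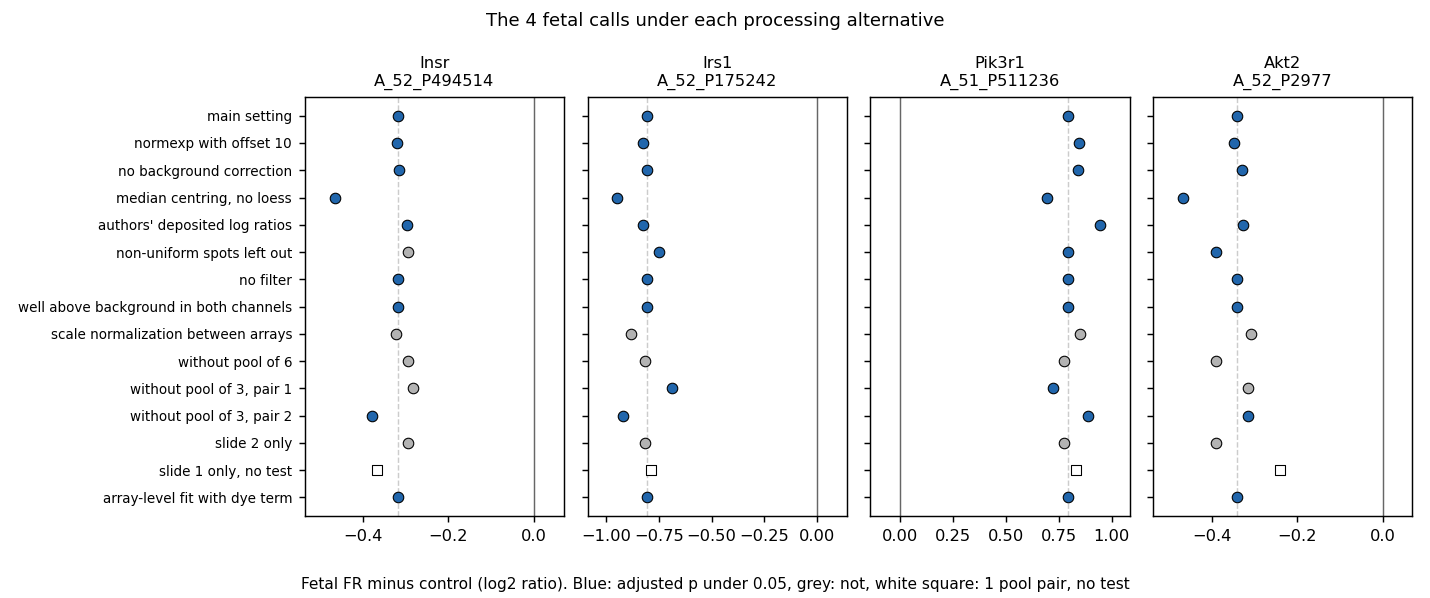
Each panel gives the fetal FR minus control log2 ratio of 1 called member probe under the main processing and 14 alternatives listed down the page; blue points passed an adjusted p of 0.05, grey points did not, and the white square is the fetal pool pair of slide 1 alone, with no test. Slide 2 only and leaving out the pool of 6 are the same fit. All 4 probes keep their sign throughout, with Irs1 between -0.95 and -0.69 and Pik3r1 between 0.69 and 0.94.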

How the data were processed

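The files were scanner output of 2-colour arrays, deposited by the authors as Cy3 and Cy5 intensity per spot with local background, and as log10 ratios of processed signal, in the series' value table too; Agilent Feature Extraction 9.5.3.1 is named in the submitters' processing notes and the headers of slide 1, and 11.0.1.1 in those of slide 2. Per the file headers, slide 1 gave mean and slide 2 only median spot signal. Background was corrected here by normexp (offset 50), dyes were normalized by loess within each array (limma 3.58.1, R 4.3.3), population-outlier spots were dropped and non-uniform and saturated spots kept, since the non-uniform flag marked 78.5% to 87.2% of the brightest 10% of Cy3 spots on slide 1. Spots of a probe were averaged on the log2 scale, ratios were turned to FR minus control, and both arrays of a dye exchange were averaged into 1 replicate. Probes had to be well above background for at least 1 diet on every array used, in at least 0.5 of their spots.

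The 3 fetal pool pairs were tested against 0 with limma (lmFit, eBayes), adjusting by Benjamini-Hochberg over all passing probes; mother minus fetus and the control levels (Aquantile) were tested with limma on 4 pairs, where the single maternal pair is assumed to vary like the fetal ones. Both limma fits were tested on simulated data. Probes are set side by side only by ratio and by signal over background, and the number of arrays limits the precision. For the lists, 26918 probes were named through accessions, 5082 through symbols and 817 through older symbols in the RefSeq table (GRCm38.p6), and 8357 kept the name in the files. List genes named are the 4 largest fetal values past the threshold and the 4 largest maternal values of each list, less some that are not reported here, and Pik3r3 and Pklr were chosen after their values were seen. Like genes were ranked for called probes that were the brightest of their gene. The members and lists were chosen with earlier results of these data known. Figures were drawn with matplotlib 3.10.9. Alternatives changed the offset, background correction, normalization, filters, spots, slides and replicates.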

Additional observations from a re-analysis of the deposited data

Results flagged for a closer look

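The FR minus control difference between mothers and fetuses passed limma's adjusted p for 7 of 79 pathway list genes, 5 of them named above, and for 0 of the 16 member probes. Over all probes 867 of 28505 passed (1.5% higher and 1.54% lower), so 0 of 16 is close to that share. Without the fetal pool of 6, 0 of 28505 probes passed (lowest adjusted p 0.084, 4618 at an unadjusted p under 0.05), so none of these calls held. For Sgk1 it was -2.04 ± 0.14 (SE, adjusted p = 0.0097), with -1.20 in mothers against 0.88, 0.97 and 0.68 in the fetal pool pairs. For G6pc it was -1.37 ± 0.18 (adjusted p = 0.033), with -0.49 in mothers against 0.75, 1.14 and 0.75 in fetuses. For Igfbp1 it was -0.81 ± 0.12 (adjusted p = 0.038), with 0.23 in mothers against 1.16, 0.98 and 0.97 in fetuses. For Eif4ebp1 it was 1.03 ± 0.09 (adjusted p = 0.015), with 0.78 in mothers against -0.21, -0.25 and -0.27 in fetuses. For Scd1 it was -0.97 ± 0.14 (adjusted p = 0.038), with -2.30 in mothers against -1.48, -1.34 and -1.17 in fetuses. The other two, named after their values were seen, were Gadd45a at -1.46 ± 0.20 (adjusted p = 0.033), with -0.86 in mothers against a fetal mean of 0.60, and Gpam at 0.88 ± 0.10 (adjusted p = 0.021), with 0.65 in mothers against a fetal mean of -0.22. Of 53 cell type markers 10 passed as well. Mother minus fetus was 1.15 for the fetal hepatocyte marker Afp, 1.36 for Klf1 and -1.44 for Tfrc among erythroid markers, 0.93 for Ltf, 0.92 for S100a8 and 1.08 for S100a9 among granulocyte markers, -0.69 for the Kupffer cell marker Adgre1, -1.60 for Col1a1 and -2.11 for Col3a1 among stellate cell markers, and 1.33 for the adipocyte marker Fabp4 (limma adjusted p 0.0097 to 0.044). The maternal side of each is 1 pool pair.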

How the results depend on the processing

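The 4 fetal calls among the members kept their sign in all 14 alternatives, and of 13 with a test, in which slide 2 only and leaving out the pool of 6 are the same fit, Irs1 and Pik3r1 passed in 10, Akt2 in 9 and Insr in 8. With scale normalization between arrays 0 of 32100 probes passed limma's fetal test (11099 at an unadjusted p under 0.05, lowest adjusted p 0.058, against 7757 called), and 724 passed on slide 2 only. Leaving out each fetal pool pair in turn gave 724 to 6908 fetal calls, 0 to 1173 calls of the mother minus fetus difference (main 867; 4618 at an unadjusted p under 0.05 without the pool of 6) and 5520 to 14610 calls of the control level (main 8878). Median centring without loess gave 4680 fetal calls (1194 higher and 3486 lower, against 3369 and 4388), 182 maternal calls (main 577) and 285 calls of the difference (171 higher and 114 lower, against 427 and 440). The authors' deposited log ratios gave 1331 maternal calls and 2013 of the difference, leaving out non-uniform spots gave 351 and 503, and scale normalization gave 101 of the difference. The control level of Pik3r1 A_52_P307938 turned from -0.38 to 0.71 with slide as a fixed term, where 1 maternal pool is compared with 1 fetal pool within slide 1. In settings added after seeing the data, leaving out non-uniform spots left 2 called genes of the 14 upstream adaptors and 3 of the 12 kinase and phosphatase genes (main 4 and 5). The other such setting, slide 2 only, left 0 and 0 of these and 1 of the Akt list (main 6). It left 2 of the FoxO-induced list (main 12) and 3 of the insulin-induced list (main 11). At an unadjusted limma p under 0.05 on slide 2 only were 5 of 14, 4 of 12, 9 of 25, 12 of 17 and 11 of 12, against 9548 of 32100 probes. Medians of the FoxO-induced and insulin-induced lists were 0.44 and -0.64 there, against 0.44 and -0.66 in the main setting. With the mean of all passing probes of a gene in place of its brightest probe, a planned setting, they were 0.40 and -0.45. Slide as a random block gave no estimate from 3 pool pairs on 2 slides and was not run. FR and control shared each array, so the log2 ratio is already the paired difference between diets. Mothers and fetuses were not paired, because nothing in the labels ties a fetal pool to its mothers. Dim probes limit what can be read for Foxo3 and for 1 probe each of Insr, Irs1 and Akt1, whose median signals lay between 1.84 and 2.86 times background.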
